A study of Mus musculus with 8 samples.

Results

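The regions described here are 111 stretches of chromatin that were listed as DNase I hotspots in both libraries of the DNSnf2h cell line and in none of the 6 libraries of the other lines. A hotspot is a region enriched in DNase I cuts, and DNase I cuts DNA where it is not wrapped tightly on nucleosomes. The hotspots of all 8 libraries were joined into 99999 sites wherever they shared at least 1 bp, and the 111 sites were selected by their presence in exactly the 2 DNSnf2h lists. The measured values that chose them are therefore peak densities that passed the threshold of both DNSnf2h lists, together with the absence of a listed hotspot elsewhere. These values are given as descriptions and carry no test.

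All libraries came from 3134 cells, a mouse mammary epithelial line that descends from a subclone of 904.13, grown for 48 hours in medium with charcoal-dextran treated serum. The parental line was measured with and without tetracycline. The DNSnf2h line carries human SNF2H with an N-terminal FLAG tag and lysine 211 changed to arginine, the DNCHD4 line carries triple-FLAG mouse Chd4 with lysine 250 changed to cysteine, and the DNBrg1 line carries a dominant-negative Brg1, for which the labels name no residue. In each of these 3 lines tetracycline represses the dominant-negative protein, and removing it for 48 hours induces it. DNSnf2h and DNCHD4 were made by integrating the construct into a 3134 line with the tetracycline transactivator, and the labels do not say whether a line is 1 clone. Each of the 8 groups has 1 library, so no p-value is given and no difference has a replicate check. The labelled cell type could not be checked against marker genes, because the gene table in hand is on another genome build than the hotspots, which are on mm9.

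Snf2h is an ATPase of the ISWI family of chromatin remodelers. These complexes slide nucleosomes along DNA and space them evenly, and they support the binding of several transcription factors by keeping nucleosomes clear of their sites. A dominant-negative ATPase competes with the normal enzyme. Both states of the DNSnf2h line enter the choice of these sites, one with the transgene silent and one with it induced. A site present in both was listed with and without induction.

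The 111 sites were a small part of what the DNSnf2h line listed. Both of its libraries listed 16220 sites, and of these 0.684% were found nowhere else (exact 95% interval 0.563 to 0.824). The same share was 0.0313% in the parental line (9 of 28770 sites), 1.26% in DNBrg1 (286 of 22627) and 8.79% in DNCHD4 (3573 of 40670). The interval treats sites as independent and covers no spread between libraries, and the lists differ in length and threshold. The order of the shares therefore describes these lists. Of the other sites found in both DNSnf2h lists, 12592 were in all 8 lists and 116 in exactly 1 further list. That further list was DNCHD4 with tetracycline at 68 sites, DNCHD4 without at 35, DNBrg1 without at 9 and parental without at 4, and it was never parental or DNBrg1 with tetracycline. The number 111 therefore leaned most on the DNCHD4 list with tetracycline: without that list 177 sites would qualify.

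Most of these sites were weak. Peak density, the authors' scaled count of tags at the highest point of a hotspot, had a median of 9.90 with tetracycline (quartiles 8.96 and 12.4, range 8.03 to 80.7). Without tetracycline the median was 10.5 (quartiles 9.27 and 13.1, range 8.06 to 107). The lists themselves begin at 8.03 and 8.06, so the typical member stood a little above the point at which it would not have been listed. In 71 of the 111 sites the density was under 1.5 times the lowest of the list in both libraries, and in 13 it was at least 2 times the lowest in both. At its highest point a median member had 53 tags with and 52 without tetracycline. Tags here and below were inferred from the density, taking 1 step of density in a library as 1 tag. The other sites found in both DNSnf2h lists had medians of 19.6 and 18.5. The width of a site spans all hotspots merged into it, so sites in more lists tend to be wider by construction. Median width was 984 bp at those other sites, against 588 bp for the 111 sites (quartiles 479.5 and 696.5). Single DNSnf2h hotspots had a median width of 593 bp with and 490 bp without tetracycline. Sites found only in both DNCHD4 libraries had a median of 585 bp, and those found only in both DNBrg1 libraries had 642 bp. The authors' z-score of enrichment had a median of 12.5 with and 12.7 without tetracycline, against 27 and 24.5 at the other sites found in both lists.

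Named sites that 1 other list held near its lowest density had DNSnf2h values within the range of the members. The 3 members with the lowest value of their higher density lay on chromosome 13 from 111462706 to 111463216, on chromosome 18 and on chromosome 2 from 51005792 to 51006184. With tetracycline they had densities of 8.22, 8.03 and 8.03, and without it each had 8.26. Just outside, a site on chromosome 2 from 101841854 to 101842375 had 8.03 and 9.88 in the DNSnf2h lists and was left out because DNCHD4 cells with tetracycline listed it at 8.05, the lowest density of that list. A site on chromosome 5 from 101682983 to 101683563, at 8.59 and 11.5, was left out for the same value. Another, on chromosome 17 from 72973179 to 72973735 at 10.1 and 9.47, had 8.23 in that library. On the other side, 1865 sites were listed with tetracycline alone and 11443 without it alone. The highest of these were on chromosome 8 from 19927680 to 19927932 and from 19921533 to 19921792, at 28.2 and 27.1 with tetracycline, and on chromosome 1 from 90120312 to 90120943, at 25.0 without it.

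The strongest of the 111 sites lay on chromosome 7 from 148377858 to 148379083. It had a density of 80.7 with tetracycline (432 tags) and 107 without (530 tags), and none of the other 6 lists held a hotspot there or skipped a hotspot number around it. Its ratio without over with tetracycline was 1.32 (exact binomial interval on tags 1.16 to 1.51). Both values were over 10 times the lowest of their list. The site on its left, 332 bp away from 148376858 to 148377526, had 47.4 and 63.3 in DNSnf2h cells, and among the other libraries it was listed at 16.0 in parental cells without tetracycline and at 17.2 in DNCHD4 cells with it. The site on its right, 529 bp away from 148379612 to 148380472, showed the opposite order. It had 112 and 94.5 in parental cells with and without tetracycline, 147 and 89.8 in DNBrg1, 125 and 124 in DNCHD4, but 12.3 and 22.4 in DNSnf2h. Over these 3 adjacent sites the DNSnf2h densities were higher on the left and in the centre and those of the other lines on the right. The other 6 lists held hotspots as low as 15.1 to 33.4 within 50 kb, so their lists reached below the DNSnf2h values in this neighbourhood.

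**Figure D1:**
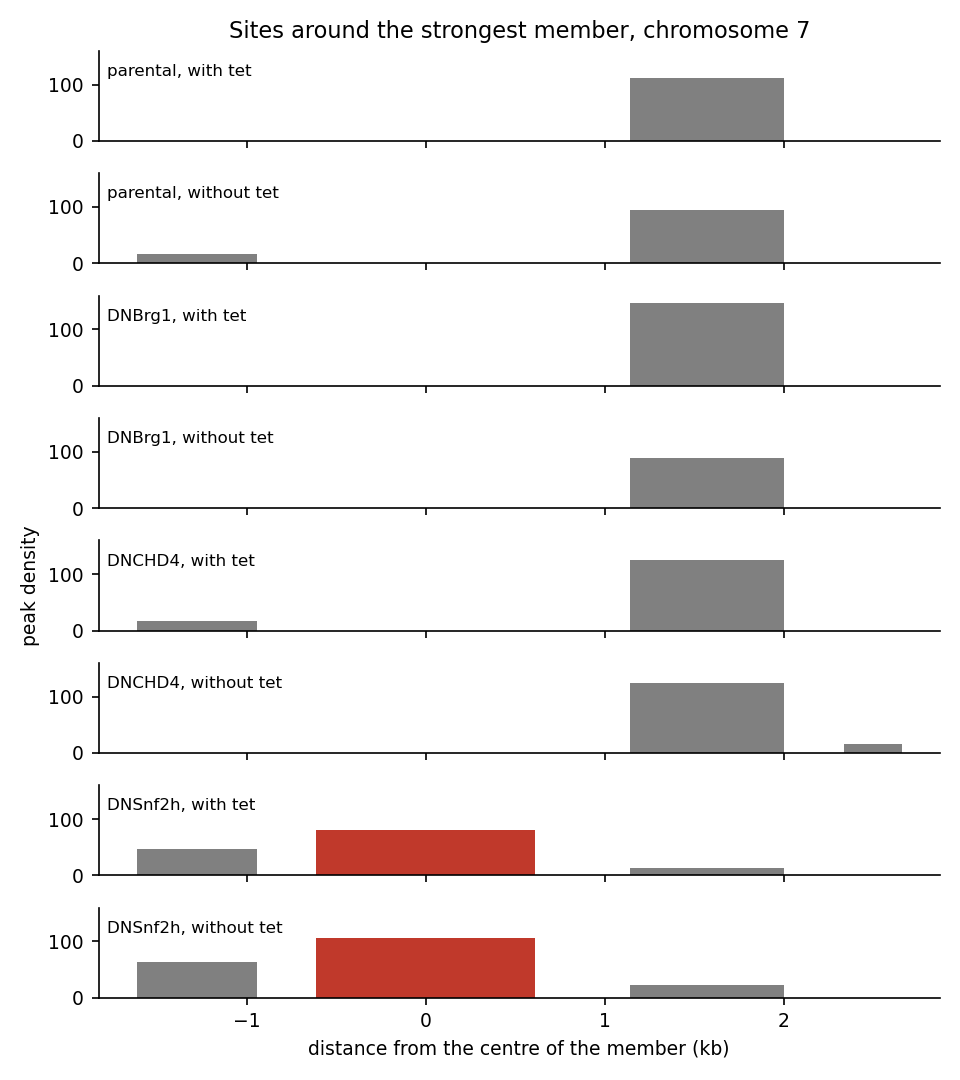
Peak density of every site within 5 kb of the strongest member on chromosome 7, 1 panel per library, against distance from its centre in kb; bar width is the width of the site and red marks the member. The red site appears in the 2 DNSnf2h panels, at 80.7 and 107, and the site to its right is at 89.8 to 147 in the other 6 libraries and at 12.3 and 22.4 in DNSnf2h.

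Of the 9 next strongest sites, 2 lay on chromosome 8 and 3 on chromosome 1. On chromosome 8, the site from 19936575 to 19937080 had 38.1 with and 31.2 without tetracycline, and the site from 19799156 to 19799855 had 27.3 and 27.6. On chromosome 1, the site from 85078198 to 85078843 had 22.8 and 24.6, that from 90115644 to 90116170 had 19.2 and 19.3, and that from 90111264 to 90111639 had 17.7 and 18.3. All 5 differed between the tetracycline states by less than the counting error of their tags.

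Chromosome 6 held 2 of them. The first, from 66416609 to 66417220, had 20.2 with and 24.6 without tetracycline, and no other DNSnf2h hotspot lay within 10 kb of it. A site 949 bp away was listed at 18 in parental and 16.8 in DNCHD4 cells with tetracycline and at 14.8 in DNBrg1 cells without it. The second, from 67218578 to 67219396, had 18.9 and 21.4 and lay 1086 bp from a strong site listed in all 8 libraries. That neighbour reached 435 and 373 in parental, 296 and 283 in DNBrg1 and 440 and 565 in DNCHD4 cells, against 82.5 and 91.9 in DNSnf2h. The last 2 lay on chromosome 3 from 152364470 to 152365028, at 21.8 and 18.9, and on chromosome 17 from 13740359 to 13741559, at 17.6 and 20.4. All 6 other lists held hotspots within 50 kb of the chromosome 17 site, but none below 20.6, so the listed range there did not reach below the member. Over the 106 members with any other list's hotspot within 50 kb, 18 stood at or above the lowest local hotspot of every such list. Another 17 stood below the lowest of all of them. Only 70 of the 111 had hotspots of all 6 other lists within 50 kb. Some of the 18 had a hotspot of only 1 other list there, such as the chromosome 1 site from 6646733. Densities were compared as deposited, without scaling between lines, so these counts only describe the lists.

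Peak density differed by less than 2-fold at every one of these sites between the silent and the induced state of dominant-negative Snf2h. The median log2 ratio of the induced to the silent state was 0.04 (quartiles -0.10 and 0.21, range -0.70 to 0.89). Without tetracycline 64 sites were higher and 47 lower. The share higher was 57.7% (exact interval 47.9 to 67.0), against 48.6% of the 16109 other sites in both lists. That interval treats members as independent, which they are not, and covers no spread between libraries. Nothing is therefore read from the difference of these shares. In either direction, 0 of 111 passed 2-fold. Over all 16220 sites in both DNSnf2h lists, 2.36% passed it upwards and 6.74% downwards. At 1.5-fold, 2 members were higher and 2 lower, against 12.3% and 18.2% of all sites. The exact binomial interval of the ratio lay above 1 at 4 members and below 1 at 3, against 21.8% and 26.2% of all sites. These intervals cover counting error only, and strong sites have narrower ones, so the last pair of shares is set beside sites of like density below. Listing in both libraries also limits how far a weak site can fall. On the mean density of a hotspot, which also depends on where its ends were drawn, 3 members passed 2-fold upwards and 3 downwards on removal of tetracycline, against 2.97% and 8.17% of all sites. The former were the sites on chromosome 13 from 35065026 (1.68 to 5.25), on chromosome 5 from 32341300 (1.06 to 2.82) and on chromosome 8 from 19947864 (1.89 to 5.39). The latter were those on chromosome 11 from 95525515 (5.47 to 2.09), on chromosome 1 from 176566609 (6.85 to 3.20) and on chromosome 7 from 16754310 (2.55 to 1.19).

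The sites with the greatest ratios did not reach 2-fold. On chromosome 12 from 116850902 to 116851637 density went from 10.5 to 19.3, a ratio of 1.85 (1.32 to 2.62). On chromosome 4 from 3018301 to 3018803 it went from 9.15 to 14.1, a ratio of 1.54 (1.06 to 2.27). On chromosome 8 from 19947864 to 19948320 it went from 17.0 to 24.6, a ratio of 1.45 (1.09 to 1.92). At these 3 sites and at the strongest site on chromosome 7 the counting interval lay above 1. The smallest ratios were 0.617 (0.430 to 0.876) on chromosome 13 from 23500664 to 23501341, where density went from 17.0 to 10.5, and 0.632 (0.419 to 0.943) on chromosome 8 from 19995062 to 19995445, from 13.1 to 8.26. On chromosome 1 from 176566609 to 176567218 it went from 14.8 to 9.88, a ratio of 0.669 (0.459 to 0.968). These were the 3 sites with the interval below 1.

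**Figure D2:**
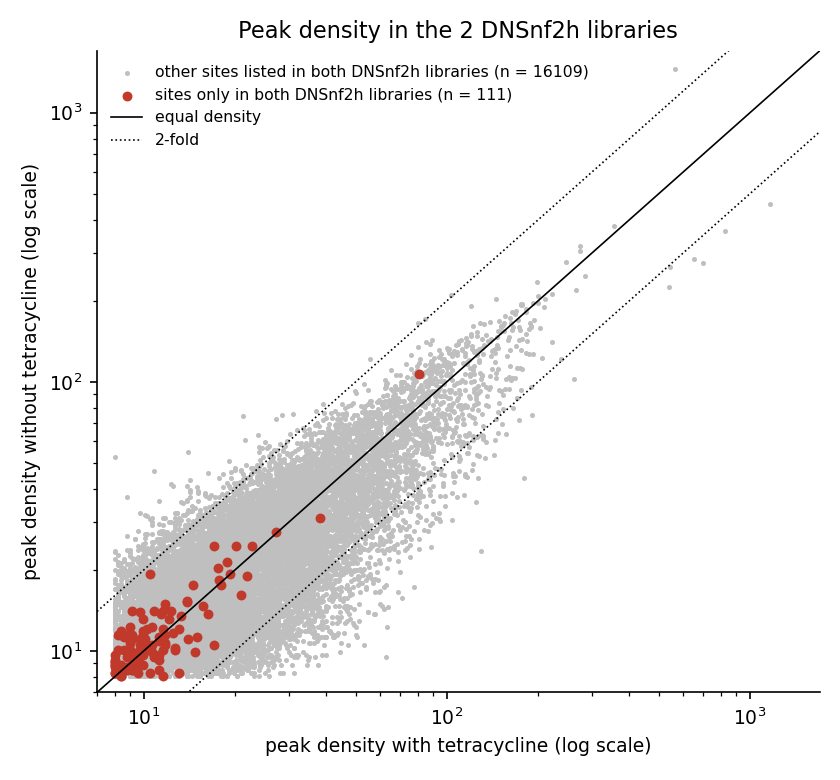
Peak density without tetracycline against peak density with tetracycline in DNSnf2h cells, both on log axes, for the 111 sites (red) and the 16109 other sites found in both lists (grey); the solid line is equality and the dotted lines are 2-fold. All red points lie between the dotted lines and most lie near the lower left corner, where the lists begin at 8.03 and 8.06.

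The spread of the ratio between the 2 DNSnf2h libraries is set here beside that at other sites of the same strength. These densities also entered the choice, so the values are a description and nothing is read from their order. Sites whose geometric mean density lay between 9.30 and 12.5, the quartiles of the members, were grouped by the number of lists that held them. The SD of the log2 ratio across sites was 0.29 for the 55 members in this range, 0.34 for 66 sites in 3 lists, 0.37 for 104 sites in 4 lists and 0.41 to 0.42 for sites in 5 to 8 lists. The counting interval of the ratio missed 1 at 5.45% of the members (3 sites), at 9.09% of sites in 3 lists, at 14.4% in 4 lists and at 18.4% to 21.9% in 5 to 8 lists. Over all 2823 such sites in 3 to 8 lists the share was 19.3%. Median widths were 598 bp for the members, 628 bp in 3 lists and 927 bp in all 8 lists. Each width spans the merged hotspots of every list that holds the site, so it tends to rise with their number by construction. The part of width in these values was not tested. Across the 111 sites the log2 densities of the 2 libraries had a Pearson correlation of 0.86 and a Spearman correlation of 0.65, and 0.80 and 0.64 without the strongest site. The sites share 2 libraries of 1 line, so these correlations describe the libraries and have no p-value.

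**Figure D3:**
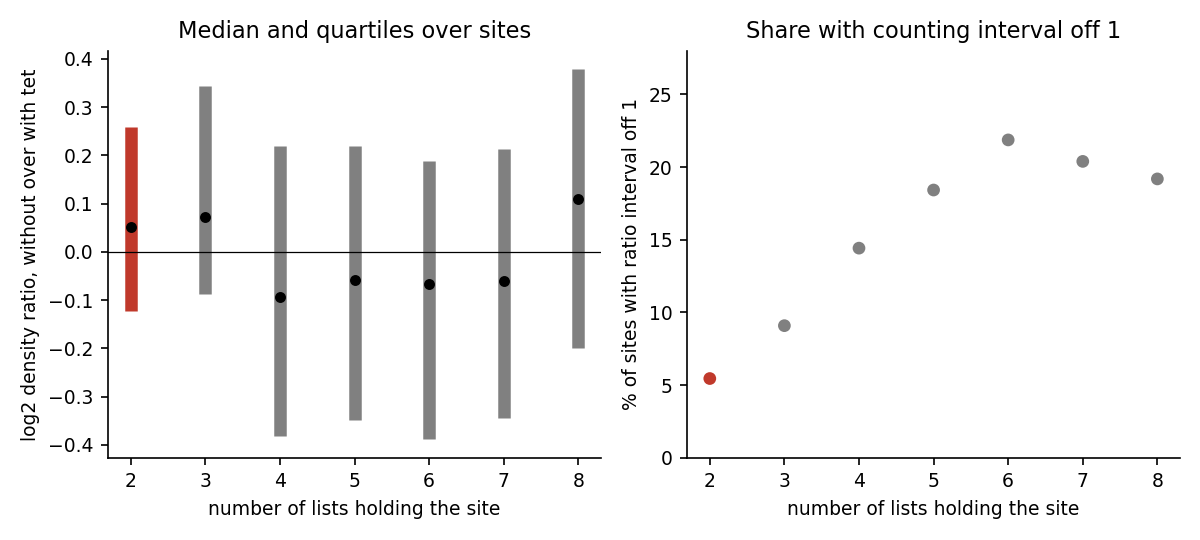
Sites found in both DNSnf2h lists with a geometric mean density of 9.30 to 12.5, by the number of lists that hold them, where 2 means the members. Left, log2 density ratio without over with tetracycline, as the median (point) and the quartiles (bar, red for the members); right, the percentage of sites whose exact 95% counting interval misses 1, which is 5.45% for the members and 19.2% for sites in all 8 lists.

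Absence from the other 6 lists had to be read beside their thresholds. As deposited, the member densities with tetracycline reached the lowest density of the parental list at 25 of 111 sites, of the DNBrg1 list at 14 and of the DNCHD4 list at 102. Without tetracycline the counts were 68, 85 and 111. DNSnf2h densities ran lower than those of the other lines at shared sites, with median log2 ratios of -1.51, -1.60 and -1.63 to parental, DNBrg1 and DNCHD4 with tetracycline and -1.40, -1.06 and -1.70 without. When these medians were used to bring member densities to the scale of each other list, all 111 stood above its lowest density. The rule fixes this, since the lowest density of either DNSnf2h list, so scaled, already passes the lowest of every other list by at least 1.48-fold. The margin, taken in the list where it was smallest, had a median of 1.83-fold (range 1.48 to 14.9), and 41 sites had at least 2-fold and 5 at least 4-fold. In the DNCHD4 list without tetracycline, which reaches lowest, the median margin was 6.67-fold. In the chromosome 8 block described below, the ratios between lines differed from these genome-wide medians. With the block's own ratios, 5 of its 10 members stood below the lowest density of at least 1 other list, and the counts at 2-fold and 4-fold became 34 and 3. No local ratios were used for members outside the block. One of the 3 at 4-fold, on chromosome 1 from 85078198, lay near shared sites whose ratios also differed from the genome-wide medians. Sites 2446, 3549 and 5171 bp from it had 24.3, 16.1 and 28.8 in DNSnf2h cells with tetracycline. In DNBrg1 cells with tetracycline they had 21.7, 24.0 and 22.3. Density alone need not decide what a list holds, and the filters behind the lists are unknown here.

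Hotspot numbers gave a further view of absence. Hotspots carry numbers in genome order in each list, and some numbers are skipped. A skipped number could be a hotspot that was numbered and then left out of the list, but the labels give no reason for the skips. Between the 2 listed hotspots that flank a member, a number was missing at 55.5% of the members in the parental list with tetracycline and at 47.7% without. The shares were 46.4% and 36.0% in the DNBrg1 lists and 56.8% and 12.6% in the DNCHD4 lists. One member had no flanking hotspot on 1 side in the parental and DNBrg1 lists with tetracycline, so these 2 shares are of 110. In all, 81 members had a number missing in at least 1 other list, 10 had one in all 6, and 30 had none in any. The interval between flanking hotspots had a median length of 26 to 146 kb, so a hotspot left out there need not lie at the member.

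A missing number was more common at the members than between neighbouring hotspots in general, where the shares were 18.4%, 12.3%, 13.8%, 9.54%, 10.7% and 4.21% in the same order. Those intervals differ in length from the ones that hold members. Other sites found in both DNSnf2h lists but absent from a given list had shares of 74.7%, 48.0%, 52.1%, 26.7%, 56.6% and 1.39%. The members were furthest below such sites in the parental list with tetracycline. They were furthest above them in the DNBrg1 and DNCHD4 lists without tetracycline. The stretches between flanking hotspots were longer at members in every list, with medians of 98.9 against 77.3 kb in the parental list with tetracycline. In the DNCHD4 list without tetracycline, 14 of 111 had a missing number (7.07 to 20.3%) against 3 of 216 (0.287 to 4.01%). Members of 1 place can share a gap, as the pair on chromosome 6 from 136273220 to 136277454 did in that list. The intervals treat members as independent, which they are not. Among the 30 members with unbroken numbering everywhere, the scaled margin was at least 2-fold in every list at 13 sites and at least 4-fold at 2, the strongest site on chromosome 7 and the chromosome 8 site from 19936575. With the block's own ratios the margin of the latter went from 7.03 to 2.57, which leaves 11 sites at 2-fold and the chromosome 7 site alone at 4-fold.

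**Figure D4:**
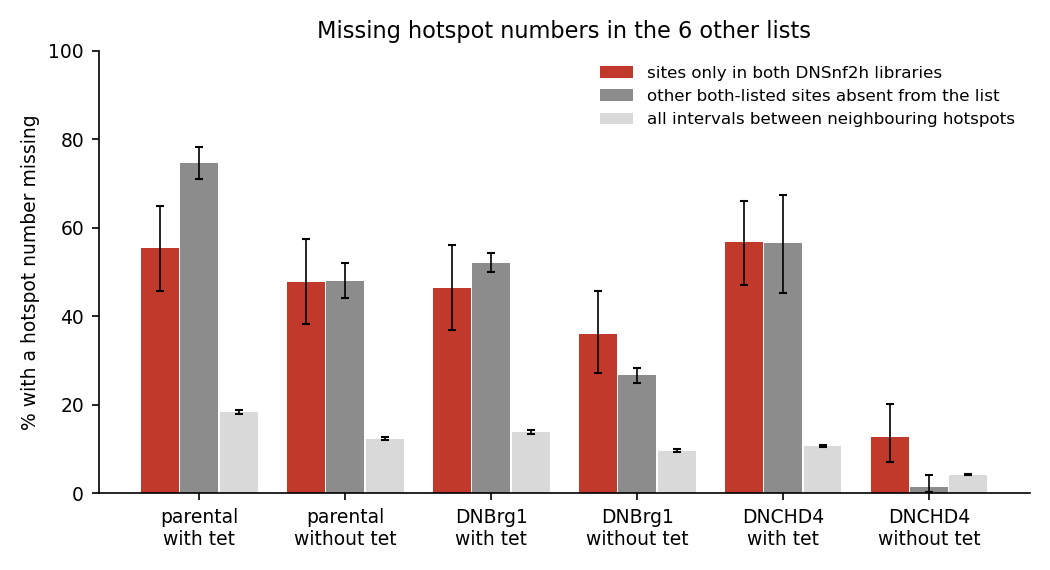
Percentage of the members (red) with a hotspot number missing between the flanking hotspots of each of the 6 other lists (111 members, or 110 in the parental and DNBrg1 lists with tetracycline), beside other sites of both DNSnf2h lists that the given list lacks (dark grey) and all intervals between neighbouring hotspots of that list (light grey), with exact 95% intervals. The red bars run from 12.6% in DNCHD4 without tetracycline to 56.8% in DNCHD4 with it.

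Distances from the members to hotspots of the other lines are given without the same distances at other sites, so they only describe the members. They also depend on list length, and the DNCHD4 lists were the longest, with 48888 hotspots with and 78093 without tetracycline. The nearest hotspot of any other list was at a median distance of 1706 bp (quartiles 680 and 7984 bp). It lay within 1 kb at 38 members (34.2%), within 5 kb at 75 and within 50 kb at 106. A site listed in all 8 libraries lay within 1 kb at 13 members and within 5 kb at 31, and its median distance was 45365 bp. The most isolated member, on chromosome 5 from 50806112 to 50806745, had densities of 10.6 and 12.3 and lay 120727 bp from the nearest hotspot of another list. The 2 DNSnf2h hotspots of a member overlap by the rule. Their overlap had a median of 92.5% of the shorter one (lowest 8.52%), and their midpoints were a median of 94.5 bp apart (highest 540.5 bp). Where the overlap is small, the 2 densities need not come from the same peak.

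Members were scattered over all autosomes and the X chromosome but gathered at a few places. They fell in 76 of the 275 windows of 10 Mb that held sites of both DNSnf2h lists, and 57 of those windows held 1 member. With members linked where they lay within 100 kb of each other, 79 stood alone and 32 formed 12 groups, of which 9 were pairs. Chromosomes 13 and 8 had the highest shares, 1.49% (11 of 738 sites of both lists, interval 0.746 to 2.65) and 1.48% (13 of 877, 0.792 to 2.52), and chromosomes 9 and 16 the lowest, with 1 member each. The chromosome 8 count rested on 1 place, since 10 of its 13 members lay between 19679262 and 19995445. Among the 10 Mb windows, the most members were on chromosome 8 from 10 to 20 Mb (10 of 109 sites of both lists), on the X chromosome from 120 to 130 Mb (4 of 9) and on chromosome 1 from 170 to 180 Mb (4 of 88). All 4 X-chromosome members lay within 16.4 kb, from 123299794 to 123316185, at densities of 9.15 to 14 with and 8.46 to 11.1 without tetracycline. Apart from the members, the DNSnf2h libraries listed 2 and 1 hotspots in that span, DNCHD4 1 and 2, parental 0 and 1, and DNBrg1 none.

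The block on chromosome 8 was crowded with hotspots in the lists of every line. It held 72 sites besides its 10 members. Of these DNSnf2h listed 48 with and 49 without tetracycline, DNCHD4 45 and 43, parental 28 and 44, and DNBrg1 19 and 41. The members sat between sites that other lines also listed. For example, the member from 19936575 lay 90 bp from a site with 35.7 and 32.0 in DNSnf2h and 36.7 in DNBrg1 without tetracycline, and 410 bp from a site listed in all 8 libraries at 23.7 to 43.6. No correction of the densities for copy number or repeated sequence is named in the labels, so densities here, at the pair of members on chromosome 1 from 90111264 and in the X-chromosome group cannot be read as accessibility per copy. At sites that both lines listed in the block, the ratio of DNSnf2h to each other line had a higher median than over all shared sites. Its median log2 ratio to parental was 0.19 with tetracycline (25 sites) and 0.11 without (34 sites), against -1.51 and -1.40 over all shared sites. The ratio was above the genome-wide median at 23 of the 25 and 32 of the 34 sites, and 1.48% and 2.11% of all shared sites had a ratio as high as the median of the block. Against DNCHD4 the medians in the block were 0.29 and 0.19, which 0.813% and 3.43% of all shared sites reached. Against DNBrg1 they were -0.25 and -0.01, which 8.61% and 14.2% reached. Inside the block the log2 ratio of the induced to the silent state had a median of -0.11 at the members and of 0.03 at the 42 other sites of both lists.

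**Figure D5:**
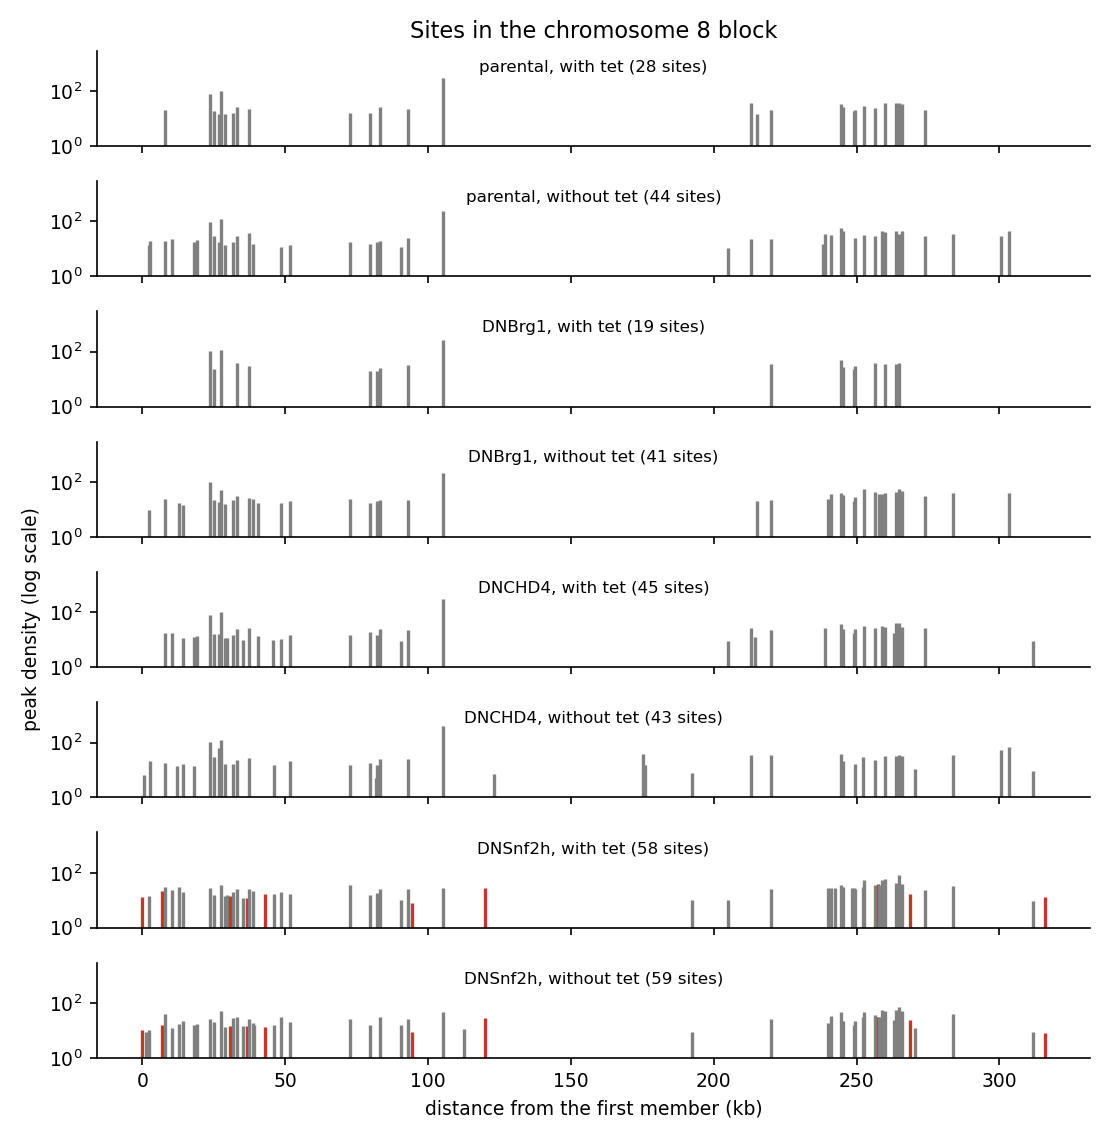
Peak density (log axis) of the sites in the chromosome 8 block in each of the 8 libraries, against distance in kb from the first member; red lines are the 10 members and grey lines the other sites. Panel counts include the members in the DNSnf2h libraries, and besides them these list 48 and 49 sites and the others 19 to 45.

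Shared sites within 50 kb of a member, the block left out, had a median log2 ratio of DNSnf2h to parental of -1.64 with tetracycline (123 sites) and -1.43 without (135 sites). With the block they had -1.35 and -1.08. With the block, 17 of 111 members (15.3%) had at least 10 DNSnf2h hotspots without tetracycline within 50 kb, against 468 of the 16109 other sites of both lists (2.91%). Without it the count was 9 of 101 members (8.91%) against 428 of 16067 sites (2.66%). Members of 1 place share these hotspots and are not independent. One such place held the pair of members on chromosome 1 from 90111264 to 90116170. Within 50 kb of this pair, DNSnf2h listed 9 sites with and 12 without tetracycline besides these members. Parental cells listed 1 and 6 there, DNBrg1 1 and 2, and DNCHD4 7 and 6. The DNSnf2h sites there, members included, ran in density from 16.7 to 34.7. The part of crowding in the choice of these members was not tested.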

How the data were processed

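DNase-seq was done on 8 libraries, 1 per group, and groups were taken from the labels. The submitters' processing notes name CASAVA 1.6 and mm9. No caller or filter is named. Per the file headers, the authors deposited for each hotspot a highest and a mean tag density (a signal, or coverage density, scaled per library), a z-score and a p-value. How the authors computed the deposited z-score (a score of enrichment, by its column name) is not stated, and it only describes sites here. The deposited p-value was not used. Every highest density was a whole multiple of 1 step per library within 0.05 tags. Taking 1 step as 1 tag gave the tags at the highest point of a site, not all tags under it. Total depth is unknown.

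Hotspots sharing at least 1 bp were merged, and each library's strongest hotspot gave a site its density there. Ratios carry exact binomial intervals on tags, and shares carry exact Clopper-Pearson intervals on sites, both at 95%. The former reflect counting error alone, and reads without molecular identifiers may be copies. The latter treat sites as independent, though members of 1 place are not, and cover no spread between libraries. A site counted as called past 2-fold or 1.5-fold, across all sites listed in both DNSnf2h libraries. Named sites were the 10 members with the highest value of their lower density, and the members with the 3 largest and 3 smallest ratios. Also named were the 3 members with the lowest value of their higher density and 3 sites that 1 other list held nearest its lowest density. The 3 strongest sites listed in 1 DNSnf2h library only and the 3 windows with most members were added. The members and lists were chosen with earlier results of these data known, and the chromosome 8 block, the chromosome 1 neighbourhood, the link distance, the grouping by number of lists the isolated chromosome 5 site and the sites past 2-fold on mean density were chosen after values were seen. Merging and intervals were tested on simulated data without a density threshold and with more tags than most members had. This checked the calculations, not the intervals at sites chosen by a threshold. Calculations used Python 3.11.15 with pandas 2.3.3, numpy 2.4.6 and scipy 1.17.1. Gene positions, base composition, motifs and sequences were not analysed here, because the reference tables are on GRCm38 and the hotspots on mm9.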

Additional observations from a re-analysis of the deposited data

How the results depend on the processing

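The number of sites found only in both DNSnf2h libraries was 111, and it moved with what counts as absent or listed. It was 73 when no hotspot of another list could lie within 1 kb, 177 without the DNCHD4 list with tetracycline and 196 when the lowest 25% of each other list were dropped. With DNSnf2h hotspots of at least 1.5 or 2 times the lowest of their list it was 21 or 13. Under the other settings it ranged from 98 (a stricter overlap between the 2 DNSnf2h hotspots) to 146 (without the DNCHD4 list without tetracycline). No site was 2-fold higher or lower on peak density, as deposited or centred. On mean density 3 were higher and 3 lower, and at 1.5-fold 2 and 2. The median log2 ratio ranged from 0.04 to 0.13 over its settings, including the block left out, a setting chosen after seeing the data. The causes of these moves were not tested, apart from fewer hotspots entering where lists were shortened. Shares near gene starts, base composition and motifs were planned but not run. No paired analysis was possible because each group has 1 library and the numbers in the titles follow the tetracycline state. The share of members among at least 10 hotspots went from 15.3% to 8.91% without the block. The block's own ratios were used for its members alone. They left a margin of at least 4-fold at 3 members, and at 1 of those with unbroken numbering. Both settings were chosen after seeing the data. The counting interval of a member's ratio reached a median of 0.58 to either side on the log2 scale.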
